A study of Mus musculus with 12 samples.

Results

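The comparison described here set splenic T cells of miR-214-/- mice against those of wild-type (WT) mice when neither had received angiotensin II (Ang II). It rests on 6 of the 12 RNASeq libraries of the series, 3 from WT sham and 3 from miR-214-/- sham mice, chosen by their labelled genotype and treatment. All genes of the count table were considered, and 15913 of 49315 passed the filter on low counts and were tested. Mice were males of 12 weeks that carried an osmotic minipump for 14 days. The pump delivered buffer in the sham groups and Ang II at 490 ng/kg/day in the other 6 mice, which are used below only to place the sham values. Each library came from a separate mouse. The deletion was global, not confined to T cells. T cells were enriched from spleen by magnetic negative selection, which leaves cells that the antibodies did not capture. Whether the WT mice of these libraries were littermates of the miR-214-/- mice was not stated in the sources used here.

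MicroRNAs guide Argonaute proteins to mRNAs by pairing of the seed, the bases next to the 5′ end, with short sites that lie mostly in 3′UTRs, and lower the stability and translation of the mRNA. miR-214 is processed from a noncoding RNA, Dnm3os, which runs opposite to an intron of the dynamin gene Dnm3 and also holds miR-199a-2. It is known in heart, muscle and bone, and it was linked to the proliferation of T cells. The RefSeq mature sequences from both arms of the hairpin are shown with bases 2 to 8 in capitals, since every site count below was made with them.
miR-214-3p: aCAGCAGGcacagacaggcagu
miR-214-5p: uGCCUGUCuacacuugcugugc
On GRCm38.p6 these lie on the plus strand at chr1:162223438-162223459 and chr1:162223397-162223418. A 3′UTR site for the 3p arm reads CCTGCTGA as a full 8mer, CCTGCTG as a 7mer that pairs with base 8, and CTGCTGA as a 7mer that ends opposite base 1.

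Libraries held 22775526 to 25518096 counts in WT sham and 21126874 to 27636189 in miR-214-/- sham. The deletion could not be checked in these libraries, which were made from polyadenylated RNA. The hairpin genes Mir214 and Mir199a-2 had 0 counts in each of the 12 libraries, and Dnm3os had 1 count, in WT Ang II library 3. Cd3e, a chain of the T cell receptor complex, was at 394 to 456 CPM (counts scaled to library size with TMM factors) in WT sham and at 389 to 427 CPM in miR-214-/- sham, so the marker of the labelled cell type was high in every sham library. No defining marker of another blood cell type that was looked for was at 0 in any sham library, and their values stand beside the results they move with. Nnt, which is truncated in the C57BL/6J strain, was read at 36.0 to 53.5 CPM over the 12 libraries, with no separation by genotype.

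Few genes differed between the genotypes in sham beyond the spread between mice. In the edgeR quasi-likelihood test, 4 of 15913 genes had a Benjamini-Hochberg adjusted p under 0.05 (0.0251%), which is what "passed" means below. Gbp2b rose in miR-214-/- T cells (1 gene, 0.00628%), and BC147527, H2-T10 and Gm8810 fell. The 3 that fell also differed by more than 1 on the log2 scale (0.0189% of the genes tested). At an unadjusted p under 0.05 there were 1061 genes (6.67%), 678 higher (4.26%) and 383 lower (2.41%). Over all genes the median log2 fold change was -0.01 and 90% of the values are bounded by -0.44 and 0.68. The count of genes that passed changed when 1 library was left out. It was 0 without WT sham library 2, WT sham library 3 or miR-214-/- sham library 3. It was 35 (0.215%) without miR-214-/- sham library 1, 14 (0.0859%) without miR-214-/- sham library 2 and 4 (0.0246%) without WT sham library 1, where BC147527 and H2-T10 were again among them. Over these fits the log2 fold changes moved less, from -2.91 to -2.63 for BC147527 and from -1.11 to -0.96 for H2-T10. Gbp2b ranged from 0.95 to 1.08 and Gm8810 from -9.31 to -9.10. DESeq2 on the same counts gave 94 genes of 15625 (0.602%), 76 higher and 18 lower, among them the 4 that passed in edgeR.

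Gbp2b encodes a guanylate-binding protein, an interferon-inducible GTPase. It was at 46.3, 53.9 and 51.0 CPM in WT sham and at 107, 90.4 and 107 CPM in miR-214-/- sham. The lowest mutant library was well above the highest WT library, and the log2 fold change was 1.0 with a standard error (SE) of 0.08 and an edgeR adjusted p of 0.0208. In Ang II the WT libraries were at 40.5, 76.5 and 39.0 CPM and the mutant libraries at 65.8, 53.3 and 105 CPM, which overlap. Gbp2b lies on chromosome 3 (chr3:142594847-142619179, plus strand), next to related guanylate-binding protein genes whose reads can be hard to assign. The 25 interferon-stimulated genes listed did not share its direction. Their median log2 fold change was -0.06 with 9 of 25 above 0 and 0 at an unadjusted p under 0.05.

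BC147527 is an annotated protein-coding gene for which no role is given here (chr13:120300392-120308779, plus strand). Its levels in WT sham were 8.59, 10.2 and 12.7 CPM, against 1.57, 1.25 and 1.72 CPM in miR-214-/- sham. The groups were far apart, and the log2 fold change was -2.79 (SE 0.22, edgeR adjusted p 0.0208). The low level was not a mark of the genotype in other mice. In Ang II the 3 mutant libraries had 6.64, 10.2 and 7.49 CPM, each above the WT libraries at 6.40, 1.04 and 5.51 CPM. Low levels of BC147527 were thus read in 3 of 3 miR-214-/- sham mice and in WT Ang II library 2.

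H2-T10 and Gm8810 are neighbours in the T region of the H2 complex, which holds nonclassical class I genes. H2-T10 (chr17:36115876-36121465, minus strand, annotated as a polymorphic pseudogene) was at 178, 222.5 and 196 CPM in WT sham and at 100.3, 89.8 and 101 CPM in miR-214-/- sham. The log2 fold change was -1.04 (SE 0.09, edgeR adjusted p 0.0208), with no overlap. Gm8810 (chr17:36066108-36067753, minus strand, an unprocessed pseudogene) had 59 to 77 counts in each WT sham library and 0 counts in each mutant sham library. Against a floor of 3 counts per library this is at least 24.5-fold lower (edgeR adjusted p 0.0262). Gm8810 was chosen for the text after its values were seen, as were the other genes of this interval.

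From Gm8810 to H2-T3 the annotation places 19 genes of the table, at chr17:36066108-36190287, and 10 of them were tested. In 6 of these 10, every mutant sham library lay below every WT sham library, and in 0 above, where 4.48% of all genes tested lay below and 5.68% above. The bounds were set at Gm8810 and H2-T3 after their values were seen. Both are among the 6, as is H2-T10, so the share was partly fixed by the choice and is no test of the region. H2-T3, which encodes the thymus leukaemia antigen, had 1.99, 4.77 and 2.66 CPM in WT sham and 0.0828, 0.139 and 0.215 CPM in miR-214-/- sham. Its log2 fold change was -4.37 (SE 0.49) with an edgeR adjusted p of 0.0870. Gm10499 had a value of -2.75 (adjusted p 0.333) and Gm19684, on the opposite strand next to H2-T10, a value of -1.31 (SE 0.20, adjusted p 0.385). Class I genes and pseudogenes here are near copies of one another, and the strand setting of the counting is not stated, so reads may be split between them or shared across strands.

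The interval did not follow genotype once the Ang II mice were included. Gm8810 was at 2.31 CPM in WT Ang II library 3 and at 3.22 CPM in miR-214-/- Ang II library 3, and at 0 in the other 4 Ang II libraries. H2-T3 was at 2.01 and 2.18 CPM in those same libraries and between 0.105 and 0.356 CPM in the other 4. H2-T10 was at 149 and 199 CPM in them and between 67.1 and 87.1 CPM in the rest. High values therefore fell in 5 of the 12 mice, the 3 WT sham mice and 1 mouse of each Ang II group.

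**Figure D1:**
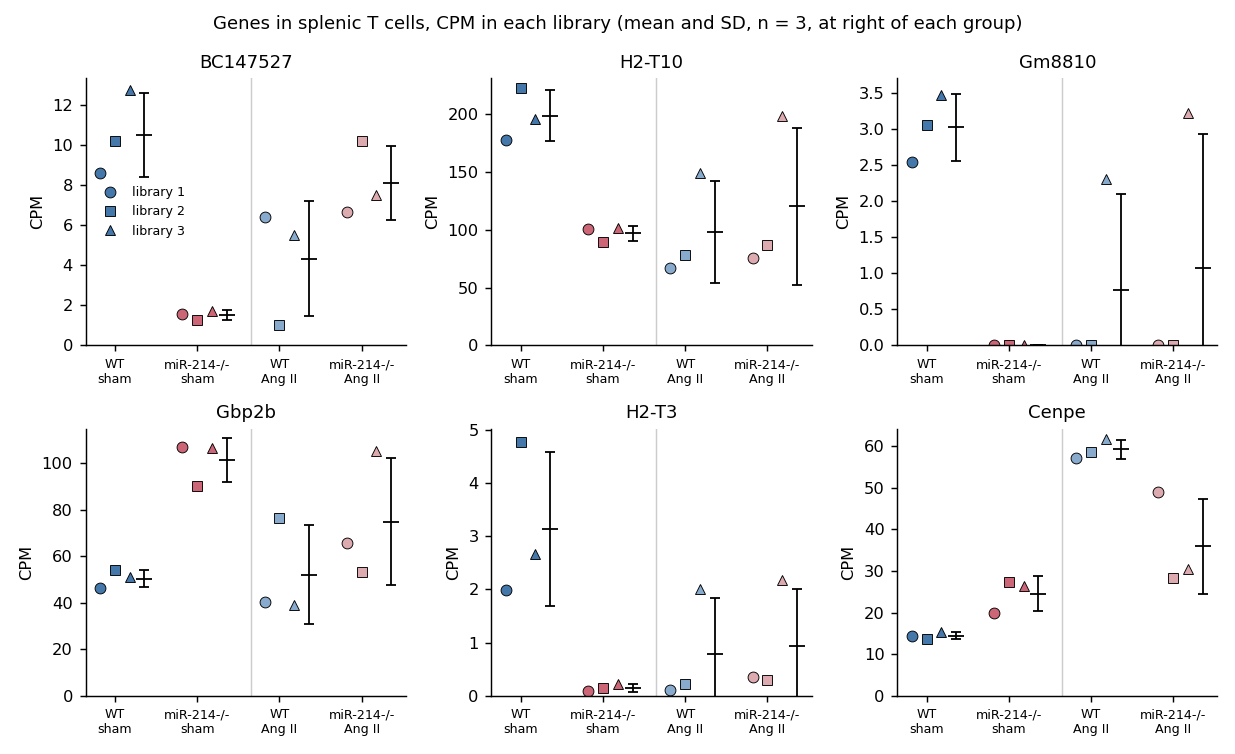
CPM of 6 genes in each of the 12 libraries, grouped by genotype and treatment, with the mean and SD of 3 libraries to the right of each group and bars cut at 0. BC147527, H2-T10, Gm8810 and H2-T3 are low in the 3 miR-214-/- sham libraries, and the H2-T genes are high again in library 3 of both Ang II groups.

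Every tested gene of the mitosis and DNA replication lists had a log2 fold change above 0 in miR-214-/- sham, and 0 of them passed the test. For mitosis and chromosome segregation, 25 genes were tested and their log2 fold changes had 0.79 as the median, with 25 of 25 above 0, where 47.6% of all genes were above 0. In this list 24 genes had an unadjusted p under 0.05, all higher, where 4.26% of all genes were. The smallest edgeR adjusted p was 0.701. For 21 of 25 genes each mutant library lay above each WT library, where 5.68% of all genes did. DESeq2 gave an adjusted p under 0.05 to 15 of them, all higher, where 0.486% of all genes it tested were.

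Cenpe, a kinetochore motor, was at 14.3, 13.6 and 15.3 CPM in WT sham and at 19.8, 27.4 and 26.4 CPM in miR-214-/- sham, a log2 difference of 0.76 (SE 0.15). Cyclin B2, from Ccnb2, which activates Cdk1 at entry into mitosis, was at 8.55, 9.85 and 11.4 CPM against 14.2, 18.9 and 18.9 CPM (0.79, SE 0.17). Cdc20, an activator of the anaphase-promoting complex, was at 12.3, 13.8 and 14.7 CPM against 17.6, 24.2 and 24.4 CPM (0.69, SE 0.16). In each of these genes miR-214-/- sham library 1 was the lowest of the mutant libraries. The kinesin Kif20a, which acts in cytokinesis, had a value of 0.84 (SE 0.19). Outside the list, Spag5, a spindle protein, had a value of 1.07 (SE 0.22), Hmgb2, a chromatin protein of proliferating cells, 0.40 (SE 0.08), and Atad2, an ATPase with a bromodomain, 0.37 (SE 0.08). The edgeR adjusted p was 0.701 for each of these 7 genes.

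Among the 24 DNA replication genes tested the median was 0.41 on the log2 scale, again with 24 of 24 above 0 and 20 at an unadjusted p under 0.05. For 16 of the 24 the groups did not overlap. Of all genes tested, 4.26% were higher at that p and 5.68% had every mutant library above every WT library. Mcm6, a subunit of the replicative helicase, was at 73.1, 87.0 and 85.2 CPM in WT sham and at 95.8, 125 and 129 CPM in miR-214-/- sham (0.50, SE 0.12). Rrm1, the large subunit of ribonucleotide reductase, was at 64.8, 77.7 and 68.7 CPM against 78.5, 118.5 and 121 CPM (0.58, SE 0.16). The origin licensing genes Cdc6 and Cdt1 had values of 1.26 and 0.37.

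Regulators of the G1/S transition were closer to the WT level. Their median was 0.20 over 21 genes, with 17 above 0 and 4 below. At an unadjusted p under 0.05, 9 were higher, where 4.26% of all genes were. Ccnd2, which encodes cyclin D2, was the lowest at -0.30. Ccne2, which encodes cyclin E2, had a value of 1.01 (SE 0.23) and was at 5.70, 6.44 and 6.59 CPM in WT sham against 8.53, 13.8 and 15.8 CPM. The Cdk inhibitor gene Cdkn2c had a value of 0.55 (SE 0.13) and E2f8, a repressor of the E2F family, 1.04 (SE 0.28). Clustered histone genes, most of whose mRNAs lack a poly(A) tail, had a median of 0.15 over the 7 of 18 that could be tested.

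Per library, the mean log2 CPM over the mitosis list was 3.74, 4.14 and 4.0 in WT sham and 4.28, 4.90 and 4.94 in miR-214-/- sham. The DNA replication list gave 4.59, 4.93 and 4.88 against 4.96, 5.46 and 5.47. Library 1 of each genotype was the lowest of its group. Without miR-214-/- sham library 1 the medians of both lists were 0.93 and 0.54, and Mki67, Top2a and Kif11 of the mitosis list and Rrm1 of the replication list passed. Over the removal of each library in turn the medians ranged from 0.68 to 0.93 and from 0.31 to 0.54. In a bulk sample a larger number of dividing cells and more of these transcripts per cell cannot be told apart.

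The promoters of these lists held the letters known for their regulators. They are shown as background. The lists were composed of known cell cycle genes, so the shares describe the lists and say nothing about the sham comparison. RefSeq windows of 300 bases around the start site were found by symbol for 10745 of the 15913 genes tested. The CHR element, TTTGAA on either strand, by which the DREAM complex and its relatives bind mitotic genes, was in 14 of 20 mitosis promoters (70%) and in 12.4% of all. Any of the E2F words TTTGGCGC, TTTCCCGC, TTTCGCGC or TTTGCCGC was in 7 of 19 DNA replication promoters (36.8%) and in 4.03% of all. The E2F words were also in 5 of 16 G1/S promoters (31.2%) and in 0 of 12 T cell identity promoters, where the CHR element was in 3 (25%). A promoter with several matches was counted once. Examples with the matched letters in capitals, read on the gene's strand, are as follows.
Ccnb2: cggcgcggtaTTTGAAtcgcggaccg
Cdc20: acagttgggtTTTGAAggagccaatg
Kif11: gtctccatttTTCAAAattgaggcgc
Mcm6: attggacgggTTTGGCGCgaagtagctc
Cdt1: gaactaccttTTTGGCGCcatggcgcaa
On GRCm38.p6 these stretches lie at chr9:70421535-70421560 (minus strand), chr4:118437346-118437371 (minus strand), chr19:37376353-37376378 (plus strand), chr1:128359735-128359762 (minus strand) and chr8:122568037-122568064 (plus strand). In Kif11 the element is on the opposite strand. A match says that the letters are present and not that a factor was bound.

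**Figure D2:**
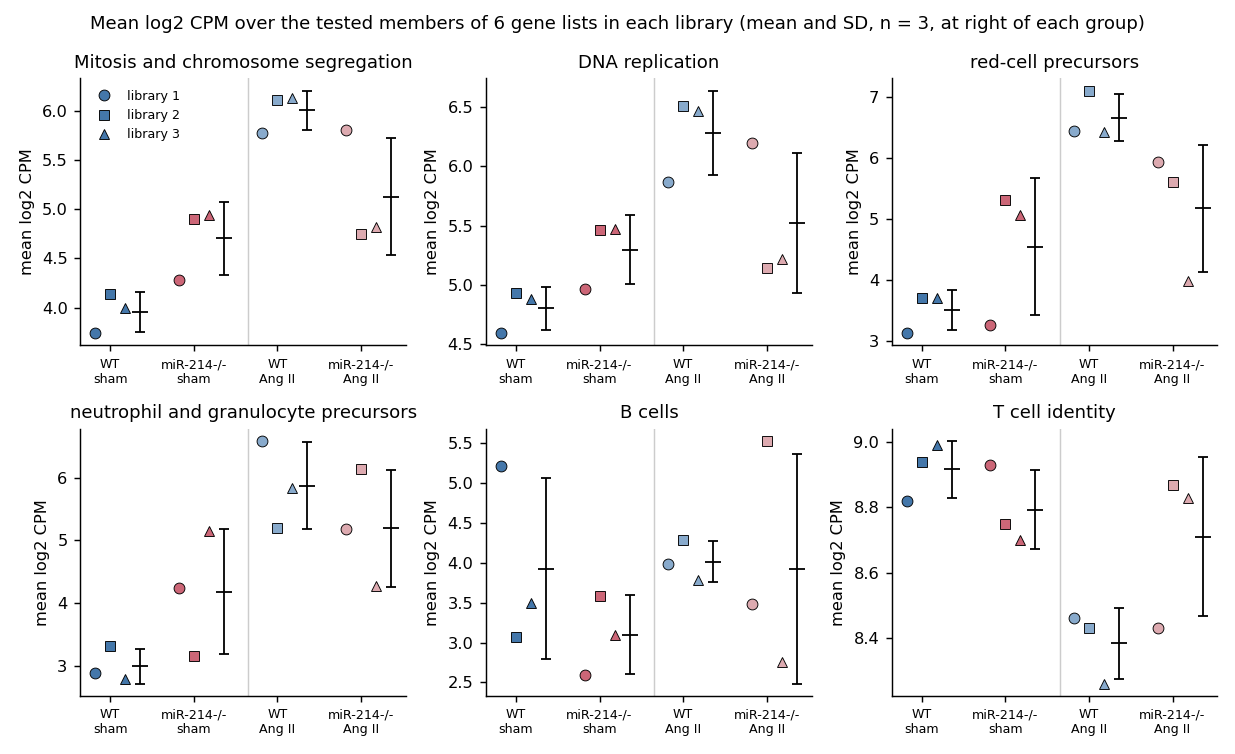
Mean log2 CPM over the tested members of 6 gene lists in each of the 12 libraries, with the mean and SD of 3 libraries to the right of each group. In sham the mitosis and DNA replication panels sit higher in miR-214-/- libraries, red-cell precursors are high in mutant libraries 2 and 3 only, granulocyte precursors in mutant libraries 1 and 3, and B cells in WT library 1.

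Transcripts of red-cell precursors were higher in part of the mutant sham mice. The 25 genes tested had a median log2 fold change of 1.5, ranging from -1.23 to 2.26, with 21 above 0 and 0 that passed. At an unadjusted p under 0.05, 14 were higher and 2 lower, where 4.26% and 2.41% of all genes were. Klf1, the master transcription factor of red-cell development, was at 8.20, 23.8 and 10.9 CPM in WT sham and at 12.3, 58.5 and 51.3 CPM in miR-214-/- sham (1.5, SE 0.59). Mutant libraries 2 and 3 were high, and mutant library 1 was within the WT range.

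The mean log2 CPM over the list was 3.12, 3.69 and 3.70 in WT sham and 3.25, 5.31 and 5.06 in miR-214-/- sham. For 0 of 25 genes did every mutant library lie above every WT library. Without miR-214-/- sham library 1, 21 of the 25 were higher at an unadjusted p under 0.05 and Tfrc, Rhag and Rhd passed. Without mutant library 2 or library 3, 2 were, and without WT library 1 it was 1.

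The globins, the end product of the same lineage, went the other way. Hba-a2 was at 34.0, 21.3 and 41.0 CPM in WT sham and at 15.9, 14.9 and 10.8 CPM in miR-214-/- sham, without overlap (-1.23, SE 0.26, edgeR adjusted p 0.701, DESeq2 adjusted p 9.54e-05). Hbb-bs was at 212, 127 and 185 CPM against 117, 120.3 and 120.1 CPM (-0.57, SE 0.17). Hba-a1 and Hbb-bt had values of -0.42 and -0.38. The paired globin genes are near identical, and their reads may be split between the copies. The 10 haem synthesis genes had a median of 0.27 with 9 above 0. Their mean log2 CPM was 4.71, 4.78 and 4.87 in WT sham and 4.67, 5.54 and 5.38 in the mutants, again high in libraries 2 and 3.
The letters AGATAA, bound by GATA factors, were in 6 of 19 red-cell promoters (31.6%) and 6.81% of all.
Rhd: cggcagcctgAGATAAgacctttggc
Epor: tggctgtagcTTATCTgtccccagcc
These stretches are at chr4:134864483-134864508 (plus strand) and chr9:21963615-21963640 (minus strand), the latter with the letters on the opposite strand. Rhd, a membrane protein of the Rh complex, had a log2 value of 1.76, and Epor, the erythropoietin receptor, 1.44.

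Granulocyte transcripts were higher in a different pair of mutant mice. All 19 neutrophil and granulocyte precursor genes tested had a log2 fold change above 0, with a median of 1.42, and 0 passed. At an unadjusted p under 0.05 there were 11, where 4.26% of all genes were higher. Mpo, the myeloperoxidase of primary granules, was at 33.9, 66.7 and 39.2 CPM in WT sham and at 145, 91.0 and 200 (199.9) CPM in miR-214-/- sham (1.63, SE 0.33). Ctsg, the granule protease cathepsin G, was at 3.89, 5.88 and 4.42 CPM against 19.0, 8.80 and 19.7 CPM (1.73, SE 0.32). Ms4a3, a membrane protein of granulocyte progenitors, was at 1.04, 1.51 and 0.902 CPM against 4.39, 3.80 and 5.89 CPM (2.01, SE 0.28, edgeR adjusted p 0.249). These 3 had no overlap between the genotypes, unlike the 16 others, where 5.68% of all genes had every mutant library above every WT library. In each, mutant library 2 was the lowest of the mutants.

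S100a8, a protein of mature neutrophils, was at 32.0, 31.3 and 27.4 CPM in WT sham, and at 89.8 and 144 CPM in mutant libraries 1 and 3 but 27.5 CPM in mutant library 2. The mean log2 CPM over the list was 2.89, 3.31 and 2.78 in WT sham and 4.24, 3.16 and 5.15 in miR-214-/- sham. Without mutant library 2 the median was 1.74 and S100a8 and Ctsg passed. Without mutant library 3 it was 0.77. Prss34 and Mcpt8, proteases of basophils, were at 17.8, 33.1 and 22.4 CPM against 111, 34.6 and 95.9 CPM, and at 8.72, 17.6 and 9.02 CPM against 38.9, 16.7 and 42.0 CPM. They follow the same mutant libraries, and the 11 basophil and mast cell genes had a median of 0.62. Lyz2, the lysozyme of myeloid cells, was at 177, 185 and 177 CPM in WT sham and at 476, 146 and 418 CPM in the mutants. The macrophage genes Adgre1, Csf1r and C1qa had log2 values of 0.01, 0.12 and -0.05, and the 17 genes of their list had a median of 0.12. The sign of that median rested on single libraries, since it was -0.18 without WT sham library 3, -0.12 without miR-214-/- sham library 3 and 0.38 without WT sham library 1. The 11 megakaryocyte genes had a median of 0.63 with 10 above 0. Vwf, the von Willebrand factor, was at 4.45, 5.52 and 3.20 CPM in WT sham and at 6.88, 8.11 and 9.08 CPM in the mutants (0.86, SE 0.23).

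B cell transcripts were lower in the mutant group, with 1 WT mouse far above the rest. The 15 genes tested had a median log2 fold change of -1.25, and 0 passed. At an unadjusted p under 0.05, 5 were lower, where 2.41% of all genes were. The mean log2 CPM over the list was 5.21, 3.07 and 3.5 in WT sham and 2.60, 3.59 and 3.10 in miR-214-/- sham. WT library 1 stood above all the others, and the median without it was -0.21. Genes of antibody secretion did not follow the B cell genes. The 11 plasma cell genes had a median of 0.89 (1.73 without WT sham library 2, 1.37 without miR-214-/- sham library 1 and 0.50 without WT sham library 3), and Jchain, the joining chain of secreted antibody, was at 175, 632 and 62.4 CPM in WT sham against 106, 754 and 751 CPM. Values over 600 CPM thus occurred in both genotypes. NK cell genes had a median of -0.24 over 14 genes and dendritic cell and MHC class II genes -0.39 over 12, with 1 gene of the first list (Klrk1, -0.36) and 0 of the second at an unadjusted p under 0.05. Without WT sham library 1 the median of the second was 0.04, with 7 of 12 above 0, and without WT sham library 2 that of the first was -0.09.

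How far these other blood cells contributed to the values of the cell division lists was not tested. In the WT sham libraries the summed level of the red-cell list was 662 to 727 CPM and that of the mitosis list 490 (490.0) to 604 CPM. In mutant library 1 the red-cell sum was 491 CPM, below the WT range, and the mitosis sum 668 CPM, above it. The red-cell sum takes in the globins, which differed in the other direction from most of the list. By mean log2 CPM the red-cell list in mutant library 1 was at 3.25, within the WT sham range of 3.12 to 3.70. In mutant libraries 2 and 3 the red-cell sums were 1475 and 1264 CPM and the mitosis sums 1039 and 1077 CPM. The granulocyte sums were 246 to 337 CPM in WT sham and 758, 327 and 1248 CPM in the mutants.

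**Figure D3:**
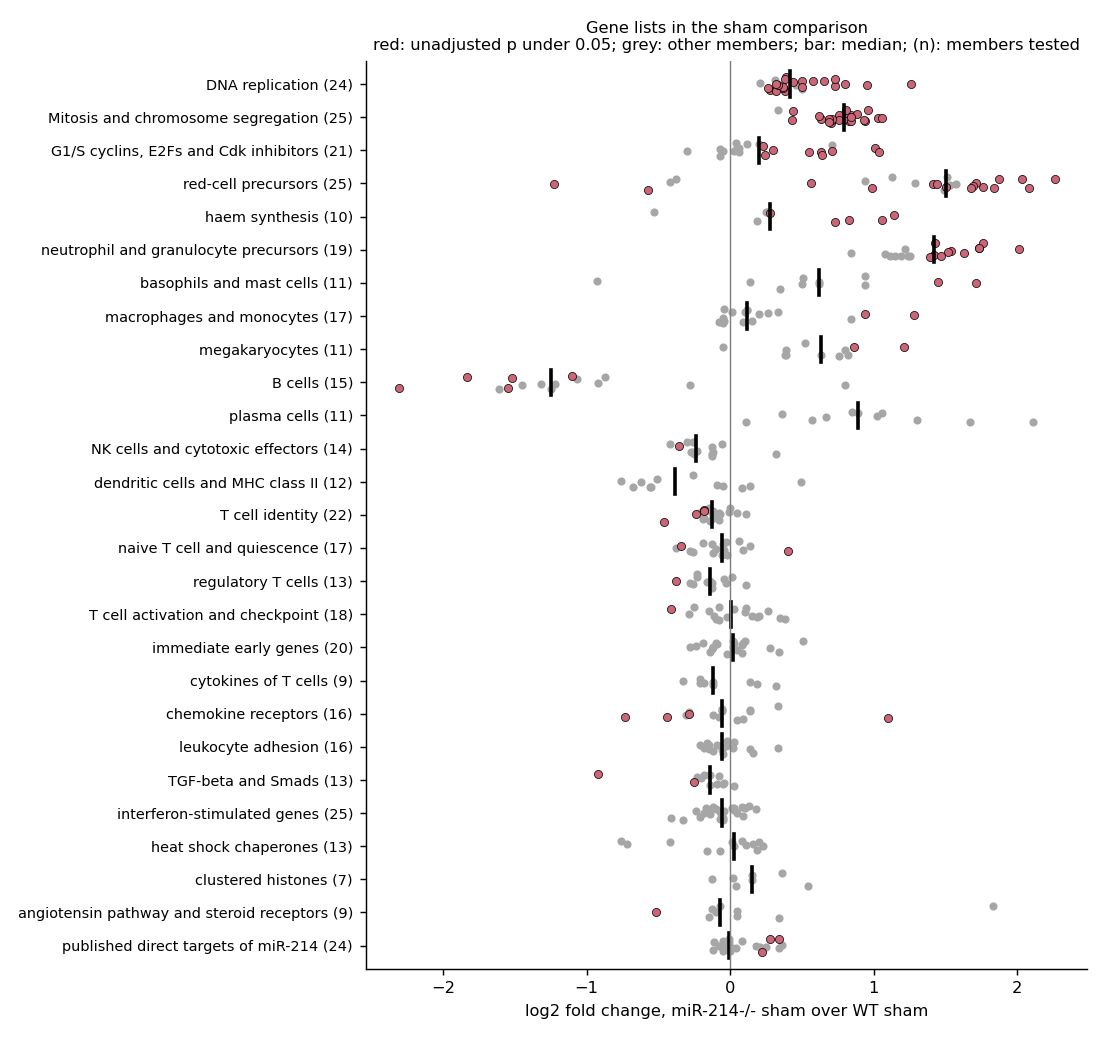
Log2 fold changes of miR-214-/- sham over WT sham for each tested member of the 27 gene lists, 1 point a gene, red where the unadjusted p was under 0.05, with a bar at the median. Mitosis and DNA replication lie wholly above 0, red-cell, plasma cell and granulocyte lists reach 2.26, 2.11 and 2.01, and the T cell lists centre close to 0.

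The genes that define T cells were slightly lower in miR-214-/- sham, and 0 passed. Of 22 T cell identity genes, 2 were above 0 and 20 below, with -0.13 as the median log2 fold change. At an unadjusted p under 0.05, 4 of 22 were lower, where 2.41% of all genes were, and for 4 every mutant library lay below every WT library, where 4.48% of all genes did. The count at an unadjusted p under 0.05 was 10 without miR-214-/- sham library 1 and 0 without WT sham library 3, miR-214-/- sham library 2 or miR-214-/- sham library 3. Cd4, the coreceptor of helper cells, was at 540 (539.8), 525 and 567 CPM in WT sham and at 492, 476 and 482 CPM in miR-214-/- sham (-0.18, SE 0.07). Cd2, an adhesion receptor, was at 283, 296 and 304 CPM against 280.5, 236 and 237 CPM (-0.24, SE 0.08). Cd8a, the coreceptor of cytotoxic cells, overlapped, at 452, 533 and 561 CPM against 540.4, 441 and 387 CPM. The differences were small beside those of the lists above. Summed over the list, the level was 11576 to 13030 CPM in WT sham and 10959 to 12897 CPM in the mutants.

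Quiescence genes gave a median of -0.06 over 17 genes. Foxo1, which drives the homing and survival programme of naive cells, was at 338, 331 and 386 CPM in WT sham and at 303, 262 and 274 CPM in the mutants, without overlap (-0.34, SE 0.09, edgeR adjusted p 0.701). Il7r, the receptor for the survival cytokine IL-7 and itself a Foxo1 target, differed in the other direction with overlap, at 838, 1014 and 807 CPM against 1382, 1218 and 938.5 CPM (0.40, SE 0.16). S1pr1, the receptor for exit from lymphoid tissue, had a value of -0.19. Genes of regulatory T cells had a median of -0.14 over 13 genes, with Foxp3, their lineage factor, at -0.23 (SE 0.10) and Lrrc32, which displays latent TGF-beta, at -0.38 (SE 0.15).

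Activation genes were level in sham. The 18 activation and checkpoint genes had a median of 0.00 and the 20 immediate early genes 0.02. Cd160, an inhibitory receptor, was lower without overlap (-0.41, SE 0.13, unadjusted p 0.0164), and Tnfrsf9, a costimulatory receptor, had a value of -0.25 (SE 0.15). Of 16 cytokine genes listed, 9 could be tested, and their median was -0.12. Tnf was at 10.8, 12.5 and 13.5 CPM in WT sham and at 9.98, 7.55 and 12 CPM in the mutants, which overlap. Tgfb1 had a value of -0.18 and Tgfb3 of -0.92 (SE 0.32), the latter from levels of 1.95 to 3.20 CPM in WT and 0.880 to 1.66 CPM in the mutants. The TGF-beta and Smad list had a median of -0.14, with 1 of 13 above 0.

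Among 16 chemokine receptor genes the median was -0.06. Cxcr5, which brings cells into B cell follicles, was at 53.8, 46.8 and 49.1 CPM in WT sham and at 41.5, 41.9 and 40.0 CPM in miR-214-/- sham (-0.29, SE 0.08). Ccr4 and Ccr6, receptors of skin-homing and Th17 cells, had values of -0.44 (SE 0.18) and -0.73 (SE 0.27), and Ccr1, found on myeloid cells, 1.10 (SE 0.41). These 4 had no overlap and an unadjusted p under 0.05, with edgeR adjusted p from 0.701 to 0.722. Of all genes, 2.41% were lower and 4.26% higher at that p, and 10.2% had no overlap. Leukocyte adhesion genes had a median of -0.05 over 16 and heat shock chaperones 0.03 over 13. Of the angiotensin and steroid receptor list, 9 genes could be tested, with a median of -0.07. Hsd11b1, which regenerates active glucocorticoid, had a value of -0.52 (SE 0.18), and Agtr1a, the type 1 Ang II receptor, one of 1.83 (SE 0.79, unadjusted p 0.0502) from levels of 0.259 to 0.812 CPM in WT and 0.290 to 3.01 CPM in the mutants. Agtr1a was high in mutant libraries 2 and 3.

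The remaining genes with the smallest p and no overlap between genotypes were as follows. Sfxn3, a mitochondrial carrier of serine, was at 95.2, 90.1 and 94.4 CPM in WT sham and at 69.8, 67.8 and 65.8 CPM in the mutants (-0.47, SE 0.06, edgeR adjusted p 0.124). Frmd4a, a FERM-domain scaffold of cell polarity, was at 17.9, 19.9 and 16.8 CPM against 24.9, 28.4 and 27.0 CPM (0.55, SE 0.11). St3gal1, a sialyltransferase of T cell glycans, was at 158.5, 159 and 162 CPM against 137, 113.5 and 118 CPM (-0.39, SE 0.08). In these 3 genes no mutant library reached the WT range. Higher in the mutants were also Fam241a (1.04, SE 0.20), Gda, the guanine deaminase (1.15, SE 0.23), and Svip, an inhibitor of protein export from the endoplasmic reticulum for degradation (1.70, SE 0.36). Lower were Sh3pxd2a, a podosome scaffold (-0.54, SE 0.10), Plekhg2, a guanine nucleotide exchange factor (-0.35, SE 0.08), Mapk11, the beta isoform of p38 (-0.36, SE 0.08), Pglyrp2, an amidase of peptidoglycan (-0.37, SE 0.08), and Tmem8b (-0.90, SE 0.20). The edgeR adjusted p of each from Frmd4a on was 0.701.

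Genes with miR-214 sites were not higher than the rest in the knockout. Of the tested genes, 12662 had an annotated 3′UTR. An 8mer site for miR-214-3p was in 722 of them (5.70%), a 7mer pairing with base 8 in 2226 and a 7mer ending opposite base 1 in 1086. The share of genes above 0 was 46.5%, 46.9% and 47.8% in these classes and 49.3% in the 8628 genes without a match. The median log2 fold change was -0.01 in each class with a site and -0.00 without. An 8mer is in 4.72% of all annotated 3′UTRs. UTRs with an 8mer are long, with a median of 2394 bases against 828 in those without a match. Within short, middle and long UTRs, 3 groups of equal size, the share above 0 was 43.5%, 45.6% and 48.6% with a match and 46.6%, 50.6% and 52.5% without. For miR-214-5p the share was 47.4% in 2422 genes with any match and 48.9% in 10240 without.

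**Figure D4:**
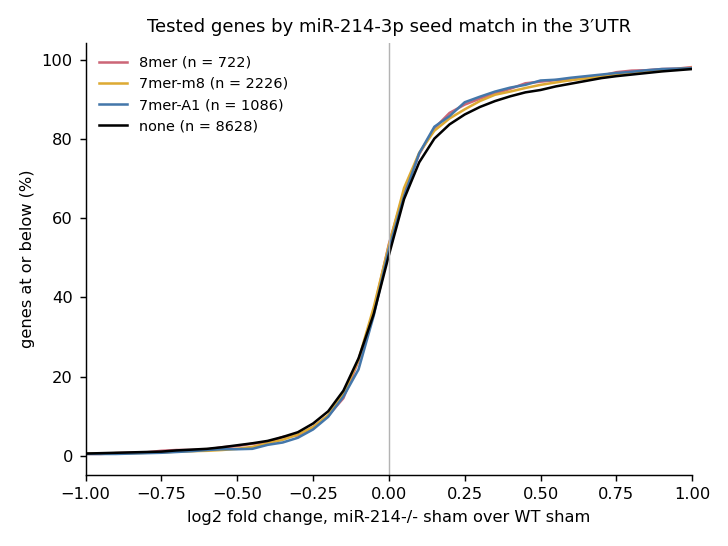
Cumulative share of tested genes (%) at or below each log2 fold change of miR-214-/- sham over WT sham, by the strongest miR-214-3p match in the longest 3′UTR. The 4 curves run close together, with medians of -0.01 in the classes with a site and -0.00 without.

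Published direct targets were spread around the WT level. The list of 26 had 24 genes that could be tested, 11 above 0 and 13 below, with a median of -0.00. Twist1 and Lhx6 were under the filter. Bcl2l11, which encodes the proapoptotic protein Bim, was at 90.8, 107 and 91.0 CPM in WT sham and at 126, 125.5 and 95.1 CPM in miR-214-/- sham, with overlap (0.25, SE 0.12). Creb1 had a value of -0.08 (SE 0.06).

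Qk, an RNA-binding protein of splicing, was at 89.3, 91.8 and 89.4 CPM in WT sham and at 103, 103 and 111 CPM in miR-214-/- sham. The groups did not overlap (0.22, SE 0.05, unadjusted p 0.00423, edgeR adjusted p 0.701). Ezh2, the methyltransferase of Polycomb, had a value of 0.34 (SE 0.12) and the growth factor Hdgf 0.28 (SE 0.11), both at an unadjusted p under 0.05. In Ang II the 3 genes were at -0.24, -0.64 and -0.53. Ezh2 had no match to bases 2 to 8 in its longest 3′UTR of 402 bases.

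The sites of Qk and Bcl2l11, and of the genes named for their smallest p that have an 8mer, are shown with the matched letters in capitals. CCTGCTG pairs with bases 2 to 8 of miR-214-3p, and the A that ends an 8mer lies opposite base 1 without pairing. The latter were 3, Svip, which was higher, and St3gal1 and Mapk11, which were lower, and of the genes that passed BC147527 had a site.
Qk: gaccatgcctgCCTGCTGAtcagttaactg
Bcl2l11: ggttttgtcttCCTGCTGAttcagcctggt
Svip: cagctcagtgaCCTGCTGAtgagtcctgct
St3gal1: acctgcttccgCCTGCTGAaccccatcttg
Mapk11: agtcagaaaagCCTGCTGAagatttgtggt
BC147527: ttctgtcagctCCTGCTGttacagcatag
In the same order they lie at chr17:10209541-10209570 (minus strand), chr2:128162076-128162105 (plus), chr7:51999095-51999124 (minus), chr15:67103407-67103436 (minus), chr15:89143182-89143211 (minus) and chr13:120308710-120308738 (plus) of GRCm38, each in a 3′UTR.

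Genes around the deleted locus were examined next, since the region next to a targeted gene can keep the DNA of the strain in which it was targeted. Of 13 genes tested within 1 Mb of Mir214, 0 passed and 1 had an unadjusted p under 0.05. That was Prdx6, a peroxiredoxin, at 117, 145 and 128 CPM in WT sham and at 152, 169 and 161 CPM in miR-214-/- sham (0.29, SE 0.08, edgeR adjusted p 0.701). Dnm3, the host gene on the opposite strand, was at 0.226 to 0.950 CPM in WT and 0.497 to 0.898 CPM in the mutants. Fasl, the death ligand of T cells, had a value of -0.13, and Suco, Pigc, Vamp4, Mettl13 and Prrc2c values of -0.07, 0.21, 0.11, -0.03 and -0.03. Tnfsf4, which encodes the OX40 ligand, was under 1.01 CPM in the 6 libraries and had a value of 0.83 (SE 0.40). The pseudogenes and noncoding genes Gm6185, Gm15429, Gm7496 and Gm27616 had values of -0.40, 0.28, 0.32 and -0.18.

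Further out, 12 of 80 genes within 5 Mb had an unadjusted p under 0.05 (15%), 18 of 187 within 10 Mb (9.63%) and 26 of 309 within 20 Mb (8.41%). The share was 7.23% on the rest of chromosome 1 and 6.6% on the other chromosomes. The median log2 fold change within 20 Mb was -0.01. Gas5, a noncoding RNA that hosts small nucleolar RNAs, lies 1.18 Mb from Mir214 and was at 212, 256 and 212 CPM in WT sham against 168, 176.5 and 174 CPM (-0.40, SE 0.08). It had an adjusted p of 0.0167 in DESeq2 and of 0.701 in edgeR. DESeq2 also passed Nuf2, a kinetochore protein at 7.27 Mb (0.84).

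**Figure D5:**
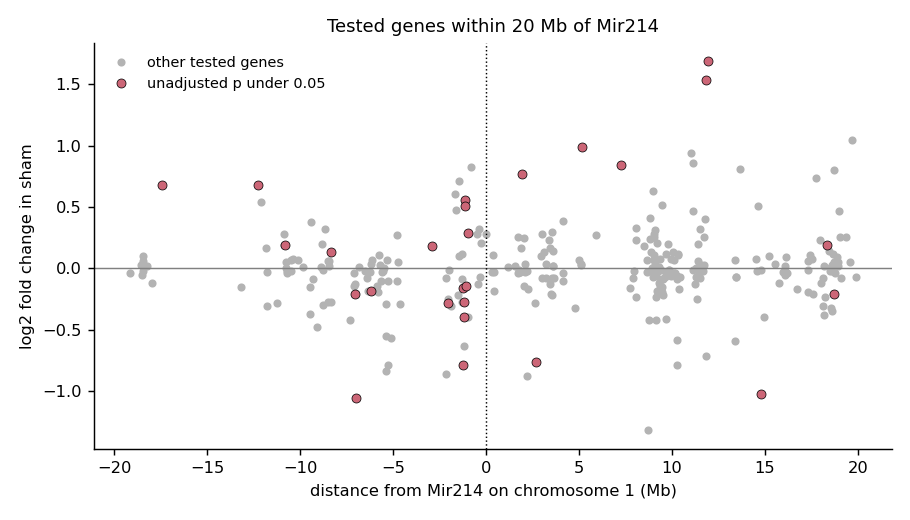
Log2 fold change of miR-214-/- sham over WT sham against the distance from Mir214 on chromosome 1 (Mb), for the 309 genes tested within 20 Mb, red where the unadjusted p was under 0.05. Values scatter around a median of -0.01, and the 12 red genes within 5 Mb lie on both sides of 0.

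The same genotype contrast was read in the mice that received Ang II, which share no library with the sham groups. There 0 of 16215 genes passed in edgeR, with a smallest adjusted p of 0.569 and 1388 genes at an unadjusted p under 0.05 (8.56%), 4.4% of all genes higher and 4.16% lower. DESeq2 passed 33 of 14729 (0.224%). Of the 4 genes that passed in sham, 3 could be tested, and Gbp2b had the same direction (0.53, SE 0.34). Of the 678 genes higher in sham at an unadjusted p under 0.05, 673 were tested in Ang II, and 51 were higher and 622 lower there. Of the 383 lower in sham, 371 were tested, and 301 were higher and 70 lower. Of all genes tested in Ang II, 50.2% were above 0, and over the genes tested in both treatments 4938 of 15608 had the same direction.

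The medians of the cell division lists had the opposite sign in Ang II. The mitosis list had a median of -0.80 in Ang II with 18 of 25 lower at an unadjusted p under 0.05, and the DNA replication list a median of -0.70 with 4. Cenpe was at 57.3, 58.7 and 61.8 CPM in WT Ang II and at 49.1, 28.4 and 30.4 CPM in miR-214-/- Ang II (-0.72, SE 0.21). Mean log2 CPM over the mitosis list was 5.77, 6.11 and 6.13 in WT Ang II and 5.81, 4.75 and 4.82 in the mutants. Mutant Ang II library 1 lay within the WT range. Mutant Ang II libraries 2 and 3, at 4.75 and 4.82, were near the level of mutant sham libraries 2 and 3, at 4.90 and 4.94.

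Red-cell precursor and granulocyte lists had medians of -1.28 and -0.37 in Ang II, and T cell identity genes 0.37 with 12 of 22 higher at an unadjusted p under 0.05. Mean log2 CPM over the red-cell list was 6.44, 7.10 and 6.42 in WT Ang II, above the mutant Ang II libraries at 3.98 to 5.93. The red-cell sums, which take in the globins, overlapped. They were 6567, 5053 and 3163 CPM in WT Ang II and 2256, 5071 and 849.6 CPM in miR-214-/- Ang II. The difference of the genotype effect between treatments was tested as an interaction over the 12 libraries. It passed for 1 of 16770 genes in edgeR (0.00596%, with 14.8% at an unadjusted p under 0.05), Frmd4a, and for 444 of 13790 in DESeq2 (3.22%). In Ang II, Frmd4a was at 46.7, 50.8 and 43.3 CPM in WT and at 26.1, 24.9 and 21.3 CPM in miR-214-/- T cells (-0.96, SE 0.11). Groups in Ang II did not overlap in this direction for 5.95% of genes and in the other for 7.96%. For Frmd4a the interaction was -1.51 (adjusted p 0.0109). The median interaction was -1.64 over the mitosis list and -1.12 over the DNA replication list, with no member past the edgeR threshold.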

How the data were processed

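Splenic T cells of 12 mice, 3 per genotype and treatment, were sequenced as stranded poly(A) libraries in 150-base pairs. According to the methods, the authors trimmed reads with Trimmomatic, aligned them to GRCm38 with STAR and counted unique exonic reads per Ensembl gene with featureCounts (Subread 1.5.2). The deposited values are raw counts per gene and library. Strand setting and annotation release were not given in the sources used here. Of 49315 identifiers, 49056 matched GENCODE M21, and 0.0245% of counts were unmatched.

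Counts were fitted with edgeR 4.0.16 in R 4.3.3 (filterByExpr, TMM factors, glmQLFit in legacy mode, glmQLFTest, two-sided, Benjamini-Hochberg over all genes tested) on the 6 sham libraries. A gene passed at an adjusted p under 0.05 and was called if the absolute log2 fold change was also over 1. CPM are TMM-scaled. Mean log2 CPM over a list used a prior count of 2. Alternatives were DESeq2 1.42.0, other scalings, filters and fits, and leaving out each library. The script was tested on simulated counts. p-values measure the spread between 3 mice per group, and a count of 0 allows up to 3 counts. No 2 libraries agreed within sampling noise (chi-square per degree of freedom 10.7 to 35.8 within groups). Members and lists were chosen with earlier results of these data known. Named were, per direction, up to 12 genes with the largest change among those called, filled up by smallest p, with a mean log2 CPM over 1 and no overlap, up to 4 genes per list by p, genes within 1 Mb of Mir214, published targets and marker genes. Seed matches were read in the longest 3′UTR of GENCODE M21, and promoters and mature miRNAs in RefSeq tables (GRCm38.p6). Sites and motifs get no test. Some genes are not reported here.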

Additional observations from a re-analysis of the deposited data

Results flagged for a closer look

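Frmd4a, a FERM-domain scaffold, differed between treatments by the interaction test. Its genotype effect was 0.55 on the log2 scale in sham and -0.96 in Ang II, with no overlap in either treatment, a difference of -1.51 (edgeR adjusted p 0.0109).

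For the other genes given here, every mutant library lay on one side of the WT libraries in sham and on the opposite side in Ang II, while the interaction did not pass in edgeR (adjusted p 0.220 for Trac and 0.213 for each of the others). Part of these genes had been named through cell cycle lists. DESeq2, which passed 444 genes for the interaction, differed from edgeR for those also among the 30 genes with the smallest sham p. Its interaction adjusted p was 4.85e-05 for BC147527, 1.58e-04 for Cenpe, 2.02e-04 for Atad2, 9.5e-04 for Ccnb2 and 0.00493 for Hmgb2. Its values for the rest are not given here. Higher in sham and lower in Ang II were the following. Cenpe, a kinetochore motor, had log2 fold changes of 0.76 in sham and -0.72 in Ang II, and Ccnb2, cyclin B2, had 0.79 and -0.92. Ccne2, cyclin E2, had 1.01 and -1.20, E2f8, an E2F repressor, had 1.04 and -0.94, Cdkn2c, a Cdk inhibitor, had 0.55 and -0.67, and Rbl1, a retinoblastoma relative, had 0.23 and -0.13. Of chromatin proteins, Hmgb2 had 0.40 and -0.54 and Atad2 had 0.37 and -0.36. The RNA-binding protein gene Qk, a published target, had 0.22 and -0.24.

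The reverse order was seen in 4 genes. BC147527 had -2.79 in sham and 0.90 in Ang II, Plekhg2, a guanine nucleotide exchange factor, had -0.35 and 0.31, Usp18, which removes the ubiquitin-like protein ISG15, had -0.41 and 0.65, and Trac, the constant region of the T cell receptor alpha chain, had -0.12 and 0.38. In sham, 10.2% of all genes tested had no overlap between the genotypes.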

How the results depend on the processing

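The count of called genes, 3 as reported, was 9 with no filter on low counts, 5 with robust fitting, 0 with 1 fit over all 4 groups, 45 with DESeq2, and 0 to 30 when 1 library was left out. The count that passed, 4 as reported, was 9, 6, 0 and 94 under the same settings and 0 to 35 without 1 library. At an unadjusted p under 0.05 the fit over all groups had 722 genes. With library size in place of TMM the median of all genes moved from -0.01 to 0.02. With the replicate block 0 genes were called and 0 passed (952 at an unadjusted p under 0.05). Same-numbered WT and mutant mice did not consistently deviate together from their group means (correlations 0.00873, 0.219 and -0.323). Not every library correlated best with its own number. Deviations within a group of 3 are not independent, so this check cannot exclude a pairing or a shared batch. DESeq2 passed 2, 3 and 3 genes within 5, 10 and 20 Mb of Mir214 (0 in edgeR). Of the 94 genes DESeq2 passed in sham, 8 had the same direction in Ang II and 4 passed there, where edgeR had 1 and 0 of its 3 tested. The 4 were among the 76 higher in sham, of which 75 were tested in Ang II by edgeR, 2 higher and 73 lower. In DESeq2, Frmd4a passed there in the opposite direction (-0.97, adjusted p 1.89e-07) and Npm3-ps1 in the same one (2.74, adjusted p 0.0427). Its interaction count was 444 against 1.

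BC147527 and H2-T10 passed in 10 of 15 alternatives, Gbp2b in 9 of 15 and Gm8810 in 7 of 14, with log2 fold changes of -2.91 to -2.63, -1.11 to -0.96 and 0.95 to 1.08 for the first 3, and adjusted p reached 0.998. Of 2841 values of 190 named genes over the alternatives, 23 lost and 38 gained significance and 11 moved. A reversal was scored only for genes that had passed, and 0 were found. The other 2769 passed again or, for genes that had not passed, shifted by less than 1 SD. Of the 2841 rounded values, 2757 kept their sign. Of 405 rounded list medians 372 kept their sign, where a median of 0.00 has none. By size, 401 moved by less than 1 SD of the list's own spread between mice, which is wide for some lists. The exceptions were B cells without WT sham library 1 (-0.21), naive T cells without miR-214-/- sham library 1 (-0.19), and the angiotensin list without WT sham library 3 (0.05) or miR-214-/- sham library 3 (0.04). The causes were not tested. With 3 mice per group an exact permutation test of 1 gene cannot go below a p of 0.1.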

Other observations

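Genes that read at 2 separate levels over the 12 libraries were looked for after the data had been seen. Of 15147 genes examined, 5 had levels at least 2 apart on the log2 scale with a spread of at most 1 within each level, and 0 of the 5 followed genotype or treatment over the 12 mice. Gm8810, described above, was 1 of them. Camk2b, a brain-type subunit of a calcium-dependent kinase, was at 17.9 CPM in WT Ang II library 1, 19.8 CPM in miR-214-/- sham library 3 and 17.9 CPM in miR-214-/- Ang II library 1, and between 1.97 and 3.75 CPM in the other 9. Rps3a2, a copy of a ribosomal protein gene, was at 47.4 CPM in WT Ang II library 1, 47.4 CPM in miR-214-/- sham library 1 and 42.9 to 82.2 CPM in the 3 miR-214-/- Ang II libraries, and between 2.65 and 4.47 CPM elsewhere. Gm7887 and Obox8 were also of this kind, each with high values in both genotypes.

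Frmpd1, chosen after its values were seen, was at 0, 0.0795 and 0 CPM in WT sham and at 1.41, 2.18 and 2.05 CPM in miR-214-/- sham (edgeR adjusted p 0.0870). It passed with no filter, in the adjusted-deviance and robust fits, without miR-214-/- sham library 1 and in DESeq2. The difference did not follow genotype in Ang II. There Frmpd1 was at 0.105, 1.97 and 0.128 CPM in WT and at 0 CPM in each miR-214-/- library (interaction -13.04, edgeR adjusted p 0.213).

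Without miR-214-/- sham library 2, the genes that passed as higher included Chil3 (1.96, SE 0.14), Lyz2 (1.31), F13a1 (1.72), Fn1 (1.52) and C3 (1.5), products of myeloid cells. Without miR-214-/- sham library 1 they included Cd24a (1.84, SE 0.10), Tfrc (0.79), Mki67 (1.05) and the immunoglobulin gene Ighg2c (2.81).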
